A study of Saccharomyces cerevisiae with 4 samples.

Results

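The genes described here are the 35 nuclear genes for the structural subunits of 2 respiratory chain complexes, of the mobile electron carrier cytochrome c and of the mitochondrial ATP synthase, measured as ribosome footprints in meiotic budding yeast. They were taken by name, as the members of these complexes, and the rule sets no threshold on a measured value: 9 genes of complex III (*COR1*, *QCR2*, *RIP1*, *CYT1*, *QCR6*, *QCR7*, *QCR8*, *QCR9* and *QCR10*), 9 of complex IV (*COX4*, *COX5A*, *COX5B*, *COX6*, *COX7*, *COX8*, *COX9*, *COX12* and *COX13*), 15 of the ATP synthase set (*ATP1*, *ATP2*, *ATP3*, *ATP4*, *ATP5*, *ATP7*, *ATP14*, *ATP15*, *ATP16*, *ATP17*, *ATP18*, *ATP19*, *ATP20*, *TIM11* and the inhibitor gene *INH1*) and 2 cytochrome c genes (*CYC1* and *CYC7*). All 35 had a row among the 5371 open reading frames (ORFs) of the footprint table. The series held 2 libraries of *dbp1Δ* cells and 2 libraries of wild-type cells, given as biological replicates, from the SK1 strain background. In the *dbp1Δ* strain the ORF of *DBP1*, which encodes a DEAD-box RNA helicase, was removed with Cas9 and no resistance marker was left behind. Both genotypes were diploids collected 6 h after transfer to rich potassium acetate sporulation (SPO) medium, after a brief cycloheximide treatment. Whether the deletion strain came from 1 clone was not given in the sources used here.

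Complex III, the cytochrome bc1 complex, passes electrons from ubiquinol to cytochrome c, and complex IV, cytochrome c oxidase, passes them on to oxygen. Both pump protons across the inner mitochondrial membrane, and the ATP synthase lets protons flow back through its membrane part to drive ATP synthesis in its F1 head. The complexes are mosaics: a few core subunits are made inside mitochondria from mitochondrial DNA, and all others are made on cytosolic ribosomes and imported, so subunits of 1 complex come from 2 translation systems. Budding yeast needs respiration to use acetate and to sporulate.

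The RPKM values moved in steps of 1 read, which gave depths between 4619171 and 5789194 reads a library. The targeted gene *DBP1* (YPL119C) fitted the labels, with 0.578 and 0.449 RPKM in the *dbp1Δ* libraries, against 164 and 147 RPKM in the wild-type libraries. All 8 meiotic marker genes were detected in every library. Of 5 haploid mating-type genes, *STE3* alone had a row, at 20.8 and 21.3 RPKM in *dbp1Δ* and 25.4 and 20.5 RPKM in wild type, and the other 4 were not analysed here. In bulk libraries such as these, fewer cells of a kind and fewer footprints per cell cannot be told apart, and messenger RNA levels were not analysed here, so a footprint density combines message level and translation.

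These genes had a high footprint density, that is, many reads for their length. The 35 genes together took 0.546% and 0.587% of all reads in *dbp1Δ* replicates 1 and 2 and 0.617% and 0.567% in wild-type replicates 1 and 2. Their median footprint density, averaged over the 4 libraries, was 350.0 RPKM, against 33.0 RPKM for all ORFs, and 34 of the 35 averaged at least 100 RPKM, which 24.4% of ORFs did. *COX9* ranked highest of the set, at place 80 of all ORFs, and *COX5B* lowest, at place 3147. The genes are short, with a median ORF length of 384 nt against 1242 nt for all ORFs, and 12 are under 300 nt. Within the set, shorter ORFs had higher RPKM (Spearman's rho -0.50 across the 35 genes, which share the same libraries and are not independent). The deposited values matched a gene length counted 60 nt short of the ORF. Whether reads in those 60 nt were also left out was not given in the sources used here. If they were counted, the shorter length raises the RPKM by a factor of 1.04 for the longest gene and 1.5 for the shortest. With the full ORF length the rho was -0.36.

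**Figure D1:**
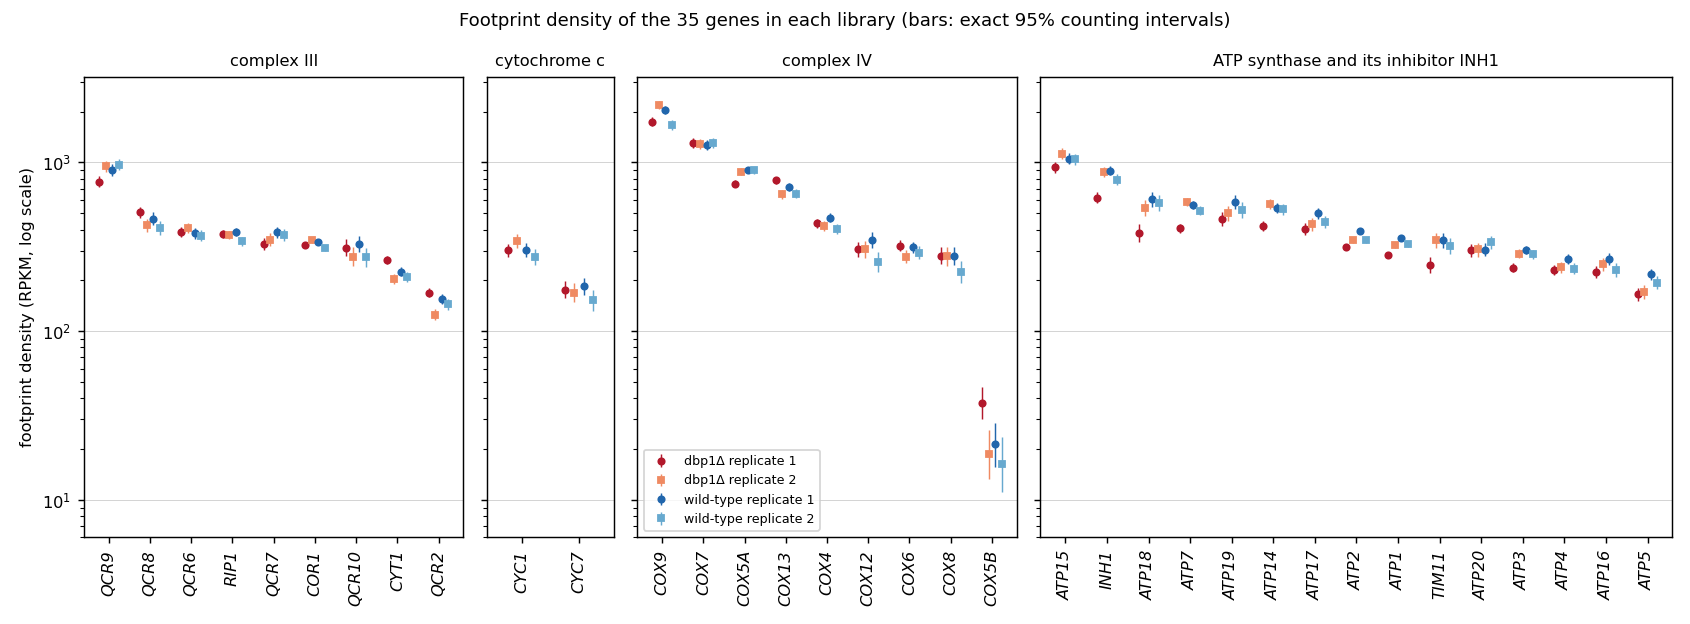
Footprint density in RPKM (log scale) of the 35 genes, grouped by complex and ordered by mean level, with 1 point for each of the 2 *dbp1Δ* and 2 wild-type libraries and bars for exact 95% counting intervals. All points but those of *COX5B*, at 16.4 to 37.5 RPKM, lie above 100 RPKM, and *dbp1Δ* replicate 1 (dark red circles) is the lowest point for every gene of the ATP synthase panel.

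The genes of the ATP synthase were all lower on average in *dbp1Δ*, by small amounts that did not pass the test. The log2 fold change (*dbp1Δ* over wild type, on RPKM plus 0.5) was below 0 for 15 of 15 genes, from -0.38 for *ATP18* to -0.03 for *ATP15*, with a median of -0.17. Across all 5338 ORFs tested the share below 0 was 57.0% with a median of -0.03, and among the 1313 ORFs that average at least 100 RPKM the share was 65.9%. None of the 15 genes had an adjusted p under 0.05 in the limma fit, and none had an unadjusted p under 0.05. The 15 genes shared 1 feature: *dbp1Δ* replicate 1 was the lowest of the 4 libraries for all of them, which held for 35.9% of all ORFs and 56.8% of the ORFs that average at least 100 RPKM. Against the wild-type mean, *dbp1Δ* replicate 1 was lower for 15 genes, with a median of -0.27 on the log2 scale, while *dbp1Δ* replicate 2 was lower for 9 and higher for 6, with a median of -0.07. The count below 0 was thus 9 of 15 without *dbp1Δ* replicate 1 and 15 of 15 without *dbp1Δ* replicate 2. The same library was the highest of the 4 for 6 of the 8 meiotic marker genes (*ZIP1*, *HOP1*, *RED1*, *SPO11*, *REC8* and *DMC1*), against 37.9% of all ORFs. *dbp1Δ* replicate 2 was the lowest for 7 of the 8, against 1790 of 5338 ORFs. The median difference of *dbp1Δ* replicate 1 minus replicate 2 over the 8 genes was 0.78 on the log2 scale. *NDT80*, the activator of the middle meiotic genes, ran the other way, at 1272 and 1653 RPKM in *dbp1Δ* replicates 1 and 2 and 1609 and 1607 RPKM in wild-type replicates 1 and 2. *IME2* was at 1739 and 1623 RPKM in *dbp1Δ*, both below the 1830 and 1831 RPKM in wild type. The 8 genes, of which *NDT80* and *IME2* are the highest, summed to 5239 and 4627 RPKM in *dbp1Δ* and 5144 and 4952 RPKM in wild type. The part of this difference between libraries in the ATP synthase values was not tested.

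The F1 head holds 3 copies each of the catalytic beta subunit (*ATP2*, YJR121W) and the related alpha subunit (*ATP1*, YBL099W) around 1 gamma subunit (*ATP3*, YBR039W), the shaft that turns inside it. *ATP1* was at 282 and 324 RPKM in *dbp1Δ* replicates 1 and 2, against 356 and 328 RPKM in wild-type replicates 1 and 2. The genotypes did not overlap, though *dbp1Δ* replicate 2 lay only a few RPKM under wild type. *ATP2* was at 315 and 348 RPKM in *dbp1Δ*, against 392 and 345 RPKM in wild type, and *ATP3* was at 238 and 288 RPKM in *dbp1Δ*, against 303 and 285 RPKM in wild type. For these genes the genotypes overlapped, with *dbp1Δ* replicate 2 next to the lower wild-type library. The central stalk also holds the delta and epsilon subunits (*ATP16* and *ATP15*). *ATP15*, the most heavily translated gene of the set per length, was at 937 and 1124 RPKM in *dbp1Δ*, against 1051 and 1040 RPKM in wild type, so that the *dbp1Δ* libraries lay on either side of a close wild-type pair. *ATP16* ranged from 224 to 267 RPKM over the 4 libraries.

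The peripheral stalk, which holds the F1 head still, is built from the products of *ATP4*, *ATP5*, *ATP7* and *ATP14*. *ATP5*, the subunit that ties the stalk to the top of the head and the gene of lowest level in the set, was at 165 and 171 RPKM in *dbp1Δ*, against 217 and 194 RPKM in wild type. The genotypes did not overlap, and the means were 168 ± 3.76 RPKM in *dbp1Δ* and 205 ± 16.2 RPKM in wild type (SD, n = 2 each), a log2 fold change of -0.29 ± 0.15 (SE) with an unadjusted limma p of 0.0970. This was the one pattern among the 4 stalk genes in which both *dbp1Δ* libraries were low together. *ATP7* was at 407 and 581 RPKM in *dbp1Δ*, against 561 and 517 RPKM in wild type, and *ATP14* at 420 and 565 RPKM in *dbp1Δ*, against 537 and 526 RPKM in wild type. For both genes *dbp1Δ* replicate 1 was the lowest and *dbp1Δ* replicate 2 the highest of the 4 libraries. *ATP4* varied little, between 231 and 268 RPKM.

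*ATP17*, *ATP18*, *ATP19*, *ATP20* and *TIM11* encode small proteins of the membrane part, of which the products of *ATP20* and *TIM11* are known for holding pairs of the enzyme together. *ATP18* (YML081C-A) was at 380 and 540 RPKM in *dbp1Δ*, against 606 and 576 RPKM in wild type. Both *dbp1Δ* libraries were below both wild-type libraries, and the distance between the *dbp1Δ* replicates was larger than that of replicate 2 from wild type. Its means were 460 ± 113 RPKM in *dbp1Δ* and 591 ± 21.5 RPKM in wild type (SD, n = 2 each), and its log2 fold change of -0.38 ± 0.19 (SE) had the smallest unadjusted limma p of the 35 genes, 0.0824. *ATP19* was at 462 and 498 RPKM in *dbp1Δ*, against 581 and 524 RPKM in wild type, and *ATP17* was at 405 and 428 RPKM in *dbp1Δ*, against 498 and 444 RPKM in wild type. For these genes too the genotypes did not overlap. *TIM11* was at 246 and 346 RPKM in *dbp1Δ*, against 345 and 321 RPKM in wild type, with *dbp1Δ* replicate 1 alone set apart. *ATP20* showed nearly no difference, with all values between 302 and 335 RPKM.

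*INH1* encodes a small protein that blocks ATP hydrolysis by F1 when the proton gradient collapses. It was at 617 and 881 RPKM in *dbp1Δ*, against 893 and 789 RPKM in wild type. *dbp1Δ* replicate 1 was the lowest library, and replicate 2 lay within the wild-type range. The ratio of *INH1* to *ATP1* was 2.18 and 2.72 in *dbp1Δ* and 2.51 and 2.41 in wild type, so the inhibitor had more than double the density of an F1 subunit in each library, and the genotypes overlapped. With the full ORF length the ratio was 1.74 and 2.16 in *dbp1Δ* and 1.999 and 1.92 in wild type.

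Summed over the 15 genes, the ATP synthase set was at 5631 and 6886 RPKM in *dbp1Δ* replicates 1 and 2, against 7178 and 6688 RPKM in wild-type replicates 1 and 2. The *dbp1Δ* mean was 9.73% lower, and the second *dbp1Δ* library lay between the wild-type libraries (exact permutation test over the 4 libraries, two-sided p = 0.667, where 2 against 2 cannot go below 0.333). Without *dbp1Δ* replicate 1 the ratio of the means was 0.993, and without *dbp1Δ* replicate 2 it was 0.812. By role, the ratio of *dbp1Δ* to wild type was 0.942 for the 5 F1 genes, 0.910 for the 4 peripheral stalk genes, 0.863 for the 5 membrane genes and 0.890 for *INH1*.

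**Figure D2:**
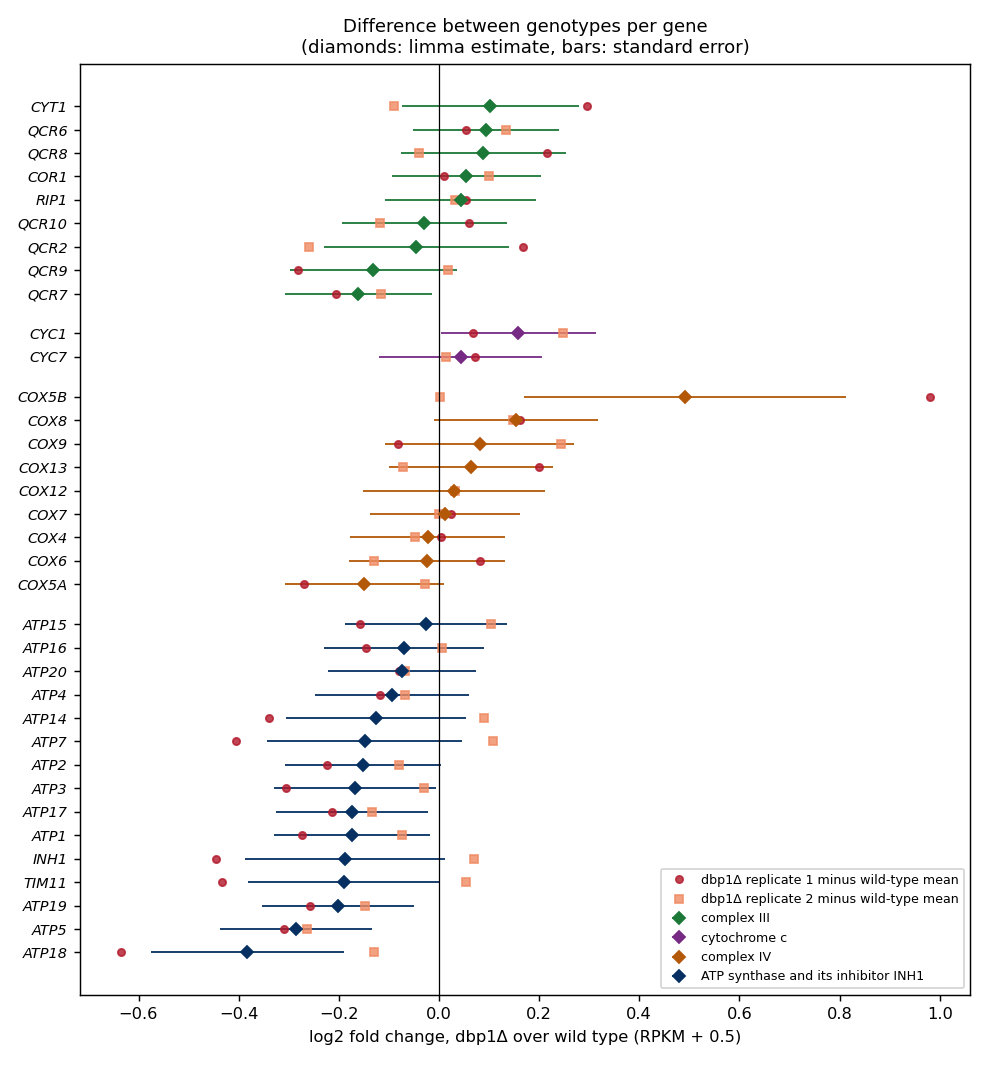
Log2 fold change of each gene (*dbp1Δ* over wild type, RPKM plus 0.5), with diamonds for the limma estimate, bars for its standard error, and circles and squares for *dbp1Δ* replicates 1 and 2 minus the wild-type mean. All 15 diamonds of the ATP synthase set lie left of 0, and in that set the circles lie left of 0 for 15 genes and the squares for 9.

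The genes of complex III differed from wild type in both directions. The log2 fold change was below 0 for 4 and above 0 for 5 of 9 genes, with a median of 0.04 and a range from -0.16 to 0.10, and *dbp1Δ* replicate 1 was the lowest library for 2 of them. The sum over the 9 genes was 3439 and 3451 RPKM in *dbp1Δ* and 3562 and 3395 RPKM in wild type (exact permutation test, two-sided p = 1). *COR1* and *QCR2* encode the core proteins, which face the matrix. *COR1* (YBL045C) was at 325 and 347 RPKM in *dbp1Δ*, against 337 and 310 RPKM in wild type. *QCR2*, the gene of lowest level in the complex, was at 168 and 125 RPKM in *dbp1Δ*, against 155 and 145 RPKM in wild type. The genotypes overlapped for both genes, and for *QCR2* the *dbp1Δ* libraries were the highest and the lowest of the 4.

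*RIP1* encodes the Rieske iron-sulfur protein and *CYT1* cytochrome c1, the nuclear-encoded subunits that carry electrons. *RIP1* was at 377 and 371 RPKM in *dbp1Δ*, against 386 and 341 RPKM in wild type, and *CYT1* was at 265 and 203 RPKM in *dbp1Δ*, against 224 and 208 RPKM in wild type. Neither separated the genotypes. Among the small subunits around this core, *QCR9* had the highest density of the complex, at 769 and 947 RPKM in *dbp1Δ*, against 901 and 970 RPKM in wild type. *QCR8* and *QCR10*, whose products span the membrane as that of *QCR9* does, ranged from 407 to 505 RPKM and from 274 to 329 RPKM over the libraries. *QCR7*, whose product sits on the matrix side, was at 328 and 349 RPKM in *dbp1Δ*, against 385 and 372 RPKM in wild type. *QCR6*, the acidic hinge protein, went the other way, at 388 and 410 RPKM in *dbp1Δ*, against 380 and 368 RPKM in wild type. These were the 2 genes of the complex whose genotypes did not overlap, with 1 lower and 1 higher in *dbp1Δ*.

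The genes of complex IV also lay on both sides of 0. The log2 fold change was below 0 for 3 and above 0 for 6 of 9 genes, with a median of 0.03. The sum was 5960 and 6302 RPKM in *dbp1Δ* and 6358 and 5714 RPKM in wild type (exact permutation test, two-sided p = 1). *COX9*, a single-span subunit and the gene of highest level among the 35, was at 1745 and 2186 RPKM in *dbp1Δ*, against 2046 and 1665 RPKM in wild type. The libraries of each genotype differed more from each other than the genotype means did. *COX7*, for another single-span subunit, was steady, between 1265 and 1307 RPKM in all libraries. *COX4* and *COX6*, for subunits on the matrix side, ranged from 404 to 469 RPKM and from 277 to 320 RPKM, and *COX12*, for a subunit on the outer face of the membrane, from 257 to 348 RPKM. The small membrane subunit genes *COX13* and *COX8* ranged from 648 to 783 RPKM and from 225 to 280 RPKM. The genotypes overlapped for each of these genes.

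Subunit 5 of complex IV has a pair of alternative forms: *COX5A* encodes the form used in oxygen and *COX5B* the form known for rising under low oxygen. *COX5A* (YNL052W) was at 746 and 883 RPKM in *dbp1Δ*, against 903 and 897 RPKM in wild type. It was the one gene of the complex whose genotypes did not overlap, and *dbp1Δ* replicate 2 lay just under the wild-type pair. *COX5B* was at 37.5 and 18.8 RPKM in *dbp1Δ*, from 86 and 37 reads, against 21.5 and 16.4 RPKM in wild type, from 45 and 30 reads. *dbp1Δ* replicate 1 was high, with an exact 95% counting interval from 30.0 to 46.3 RPKM, while the interval of *dbp1Δ* replicate 2, from 13.2 to 25.9 RPKM, overlapped those of both wild-type libraries. The log2 fold change of 0.49 ± 0.32 (SE) was the largest of the 35 genes and had an unadjusted limma p of 0.165. The ratio of *COX5A* to *COX5B* was 19.9 and 47.0 in *dbp1Δ*, against 42.1 and 54.7 in wild type. *COX5A* was thus at least 19.9 times as dense in each library, and *dbp1Δ* replicate 1 alone had a ratio under 42. The genotypes overlapped (exact permutation test, two-sided p = 0.667).

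The cytochrome c genes also form such a pair, with *CYC1* for iso-1-cytochrome c and *CYC7* for iso-2-cytochrome c, the minor form in aerobic vegetative cells. *CYC1* was at 302.0 and 342 RPKM in *dbp1Δ*, against 301 and 275.02 RPKM in wild type. The genotypes did not overlap, though *dbp1Δ* replicate 1 and wild-type replicate 1 differed by less than 1 RPKM. *CYC7* was at 176 and 169 RPKM in *dbp1Δ*, against 184 and 152 RPKM in wild type. The ratio of *CYC1* to *CYC7* was 1.72 and 2.02 in *dbp1Δ*, against 1.64 and 1.81 in wild type (exact permutation test, two-sided p = 0.667), so both forms were well represented in all 4 libraries, unlike the pair of *COX5* genes.

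**Figure D3:**
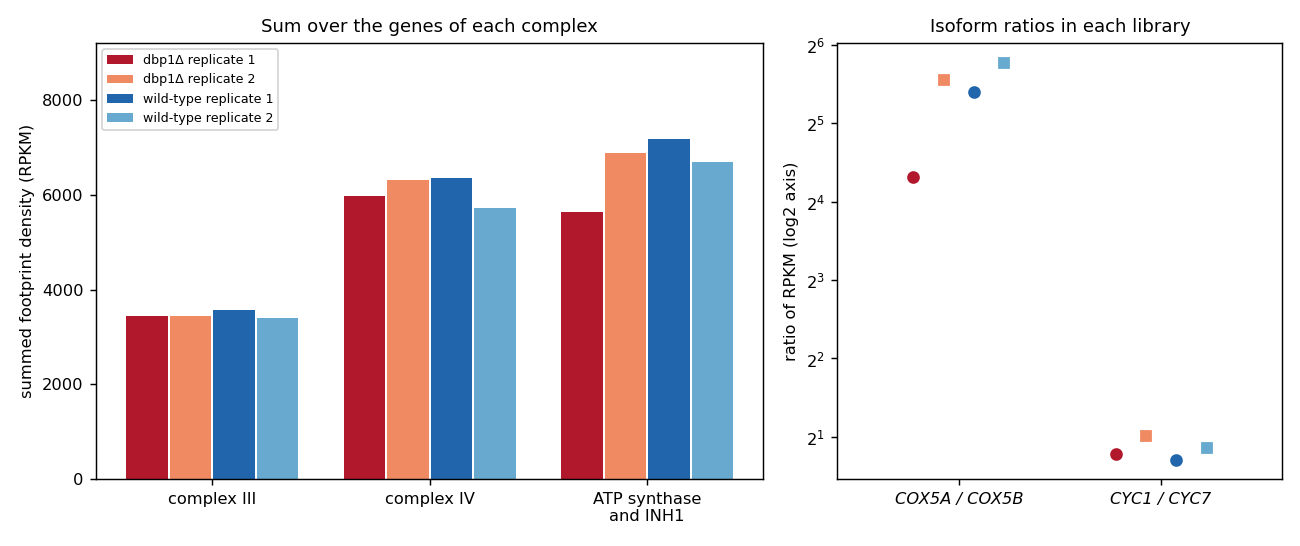
Left, summed footprint density in RPKM over the 9 genes of complex III, the 9 of complex IV and the 15 of the ATP synthase set, 1 bar for each library. Right, ratio of *COX5A* to *COX5B* and of *CYC1* to *CYC7* (log2 axis), in the same library colours, where *dbp1Δ* replicate 1 (dark red) has the lowest ATP synthase sum, 5631 RPKM, and the lowest *COX5A* to *COX5B* ratio, 19.9.

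None of the 35 genes passed the test between the genotypes. With limma, 0 of the 35 had an adjusted p under 0.05 (lowest adjusted p 0.9998), where 2 of the 5338 ORFs tested, or 0.0375%, did, and 0 had an unadjusted p under 0.05, where 1.67% of ORFs did. The 2 ORFs were *DBP1* itself and a short ORF at its locus, YPL119C-A. With limma voom on the recovered reads the counts for the 35 genes were also 0 and 0. The log2 fold change was below 0 for 22 genes and above 0 for 13, with a median of -0.05. Both *dbp1Δ* libraries lay below both wild-type libraries for 7 genes (*ATP1*, *ATP5*, *ATP17*, *ATP18*, *ATP19*, *QCR7* and *COX5A*), where 15.3% of ORFs did so. Both lay above for 2 genes (*QCR6* and *CYC1*), where 9.59% of ORFs did so, and for the other 26 genes the genotypes overlapped. Without *dbp1Δ* replicate 2, a fit in which the lone *dbp1Δ* library is taken to vary like wild type, 6 of the 35 genes had an adjusted p under 0.05 (limma), with *COX5B* higher and *ATP7*, *ATP14*, *ATP18*, *TIM11* and *INH1* lower in *dbp1Δ*, and so did 9.70% of all ORFs. Without *dbp1Δ* replicate 1, 0 of the 35 and 0.0187% of all ORFs did.

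The *dbp1Δ* replicates differed in both directions. *COX5B* was 1.996 times as high in replicate 1 as in replicate 2 and *QCR2* 1.35 times, while *INH1*, *ATP7*, *ATP18*, *TIM11* and *ATP14* were 1.43, 1.43, 1.42, 1.403 and 1.35 times as high in replicate 2 as in replicate 1. Between the wild-type replicates the largest difference was that of *COX12*, at 0.44 on the log2 scale. *dbp1Δ* replicate 1 was lower than replicate 2 for 23 of the 35 genes and for all 15 ATP synthase genes, against 45.6% of all ORFs. Among the ORFs that average at least 100 RPKM it was lower for 831 of 1313. For the members outside the ATP synthase it was lower for 8 and higher for 12. It was the highest of the 4 libraries for 8 of the 35 genes, against 37.9% of all ORFs. These were *QCR2*, *CYT1*, *QCR8*, *COX5B*, *COX6*, *COX7*, *COX8* and *COX13*. Of the 1313 ORFs that average at least 100 RPKM, 376 were highest in *dbp1Δ* replicate 1. The exact 95% counting intervals of the *dbp1Δ* pair did not overlap for 17 of the 35 genes, against 39.4% of all ORFs. Among the ORFs that average at least 100 RPKM they did not overlap for 907 of 1313. The 17 genes held 9 of the ATP synthase set and 4 each of complexes III and IV. The intervals of the wild-type pair did not overlap for 6 genes, *RIP1*, *COX4*, *COX9*, *COX12*, *ATP1* and *ATP2*, against 6.76% of all ORFs. Of the 1313 ORFs that average at least 100 RPKM, 225 had wild-type intervals that did not overlap. Wild-type replicate 1 was higher than replicate 2 for 32 of the 35 genes, all but *QCR9*, *COX7* and *ATP20*, against 52.2% of all ORFs. The median difference over the 35 genes was 0.13 on the log2 scale. At an average of at least 100 RPKM, 734 of 1313 ORFs were higher in wild-type replicate 1. The intervals hold counting error alone, and they are too narrow where amplified reads are copies of 1 molecule.

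**Figure D4:**
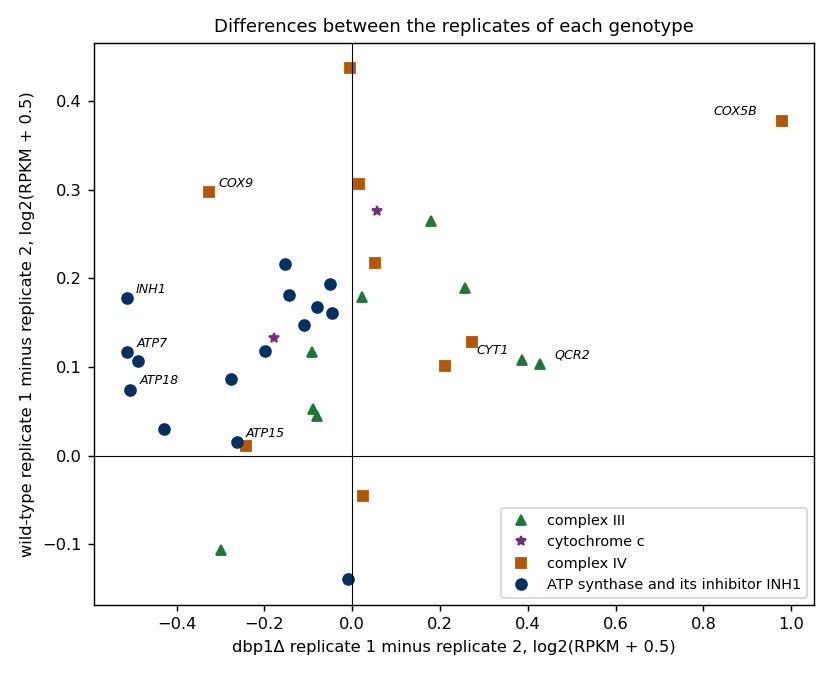
Difference of replicate 1 minus replicate 2 on log2(RPKM + 0.5) in *dbp1Δ* (horizontal axis) and in wild type (vertical axis), 1 point a gene. All 15 ATP synthase points (dark circles) lie left of 0, between -0.51 and -0.01, while *COX5B* stands alone at 0.98, and 32 of the 35 points lie above 0 on the vertical axis.

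Within each complex, the genes differed several-fold in footprint density. To compare them, each gene was divided by the median of its complex in the same library, with *INH1* counted in the ATP synthase median and both *COX5A* and *COX5B* in that of complex IV. By the geometric mean over the 4 libraries, 7 of 33 genes were more than 2-fold from the median. *COX9* was 4.39 times and *COX7* 2.99 times the median of complex IV, *QCR9* 2.56 times that of complex III, *ATP15* 2.97 times and *INH1* 2.25 times that of the ATP synthase. *COX5B* was 0.052 times and *QCR2* 0.423 times the median. The 5 high genes are all under 300 nt. With the full ORF length these 5 values were 3.36 for *COX9*, 2.30 for *COX7*, 1.96 for *QCR9*, 2.17 for *ATP15* and 1.85 for *INH1*, so 5 genes stayed more than 2-fold away.

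In the ATP synthase set, 12 of the 15 genes were within 1.5-fold of the median, and 11 with the full ORF length. With the deposited length, *ATP15* and *INH1* lay above that range and *ATP5*, at 0.53 times the median, below it. *ATP1* and *ATP2*, present at 3 copies for each *ATP3* product, had densities near that of *ATP3*. The ratio of *ATP1* to *ATP3* was 1.19 and 1.13 in *dbp1Δ* and 1.17 and 1.15 in wild type, and that of *ATP2* to *ATP3* was 1.32 and 1.21 in *dbp1Δ* and 1.29 and 1.21 in wild type. The ratio of *ATP1* to *ATP2*, subunits of equal number, was 0.896 and 0.932 in *dbp1Δ* and 0.909 and 0.949 in wild type. These ORFs are long, so the 60 nt matter little: with the full ORF length the *ATP1* to *ATP3* ratio was 1.22 and 1.16 in *dbp1Δ* and 1.21 and 1.18 in wild type. The ratios among these 3 genes varied less between libraries than the levels themselves.

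In complex III the core proteins, with 1 copy each per monomer, were unequal in every library. The ratio of *COR1* to *QCR2* was 1.93 and 2.77 in *dbp1Δ*, against 2.17 and 2.15 in wild type. The wild-type libraries were close, and the *dbp1Δ* libraries lay on either side of them. The ratio of *CYT1* to *RIP1* was 0.704 and 0.547 in *dbp1Δ* and 0.581 and 0.610 in wild type, again with the *dbp1Δ* pair outside the wild-type pair. Between complexes, the summed ATP synthase set was 1.64 and 1.995 times complex III in *dbp1Δ*, against 2.02 and 1.97 times in wild type, and 0.945 and 1.09 times complex IV in *dbp1Δ*, against 1.13 and 1.17 times in wild type. Of 18 sums and ratios tested, the last was the one in which the genotypes did not overlap (exact permutation test, two-sided p = 0.333, the smallest the design allows).

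**Figure D5:**
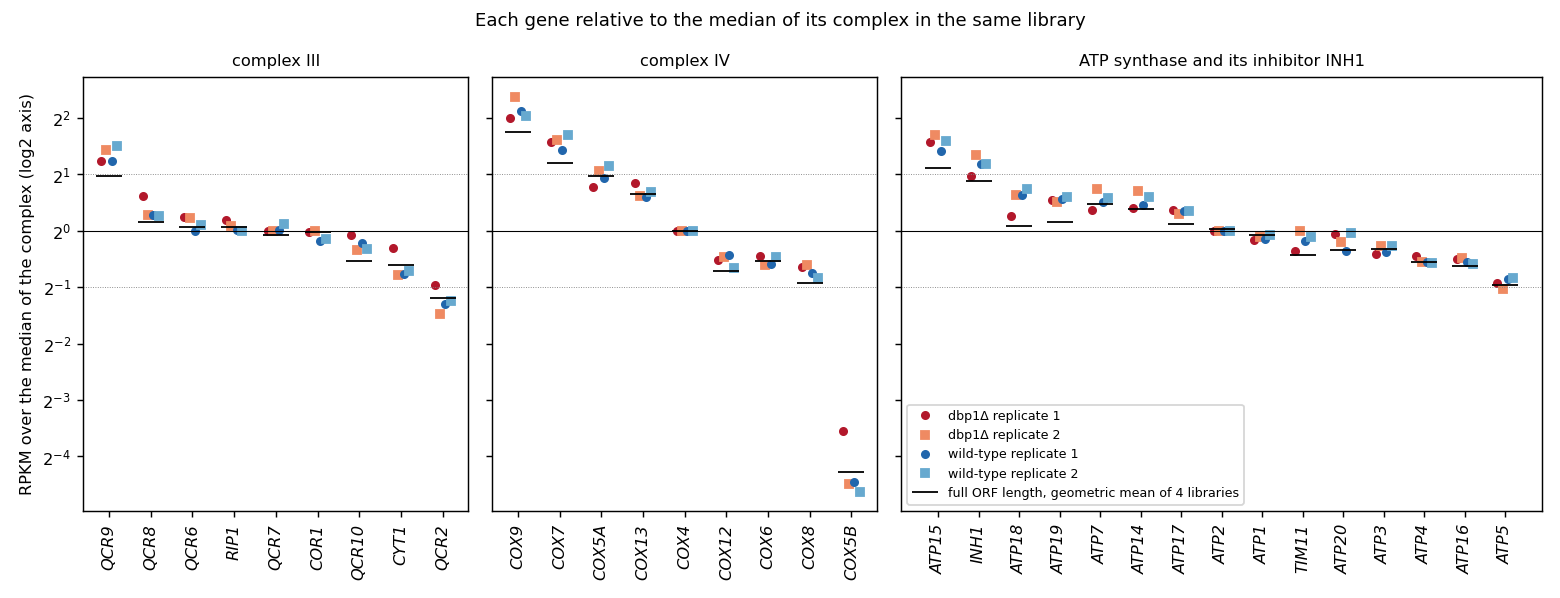
Footprint density of each gene over the median of its complex in the same library (log2 axis), with points for the 4 libraries, black dashes for the geometric mean of the ratios with the full ORF length, and dotted lines at 2-fold above and below the median. By the geometric mean of their 4 points, *COX9*, *COX7*, *QCR9*, *ATP15* and *INH1* are more than 2-fold above the median. The dashes of *QCR9*, at 1.96, and *INH1*, at 1.85, lie below the upper dotted line. *COX5B*, at 0.052 times the median, lies far below the lower one.

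Genes around the complexes gave no call by limma. Among 10 dehydrogenase genes that feed electrons into the chain, 0 had an adjusted p under 0.05, where 0.0375% of all ORFs did. At that share, a count of 0 in a list this short does not set its genes apart. Complex II, which oxidises succinate, was represented by *SDH1*, *SDH2*, *SDH3* and *SDH4*: the flavoprotein gene *SDH1* was at 148 and 123 RPKM in *dbp1Δ* and 133 and 110 RPKM in wild type, and the iron-sulfur protein gene *SDH2* was at 524 and 544 RPKM in *dbp1Δ* and 555 and 514 RPKM in wild type. The membrane anchors were at 324 and 252 RPKM in *dbp1Δ* and 304 and 256 RPKM in wild type for *SDH3*, and at 366 and 467 RPKM in *dbp1Δ* and 467 and 408 RPKM in wild type for *SDH4*. The genotypes overlapped for all 4. *NDI1*, the internal NADH dehydrogenase that takes the place of complex I in this yeast, was at 167 and 219 RPKM in *dbp1Δ* and 203 and 176 RPKM in wild type. *HAP4*, the activating subunit of the HAP complex that drives respiratory genes, was at 45.7 and 42.6 RPKM in *dbp1Δ* and 45.2 and 41.6 RPKM in wild type.

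The assembly genes likewise held 0 adjusted calls (limma), where 0.0375% of all ORFs had one. The counts were 0 of 8 for complex III, 0 of 18 tested of 19 for complex IV and 0 of 10 for the ATP synthase. They were 0 of 2 for the cytochrome c haem lyases and 0 of 6 for the regulator genes. The median log2 fold changes of these lists were -0.05, -0.14, -0.08, 0.34 and -0.12 in that order, beside -0.03 for all ORFs. Of the 18 complex IV assembly genes, 15 were below 0 and 3 above, where 57.0% of all ORFs were below. *dbp1Δ* replicate 1 was the lowest library for 14 of the 18, against 35.9% of all ORFs. It was the lowest for 4 of 8 assembly genes of complex III and 5 of 10 of the ATP synthase. In the tricarboxylic acid (TCA) cycle, which makes NADH for the chain, 0 of 11 genes passed. The log2 fold change was below 0 for 10 of them, and *dbp1Δ* replicate 1 was the lowest library for 10. All 11 average at least 100 RPKM, and among all ORFs at that level these shares were 65.9% and 56.8%. The summed TCA density was 11034 and 14159 RPKM in *dbp1Δ*, against 14225 and 13667 RPKM in wild type. Of 7 subunit genes encoded in mitochondrial DNA, *ATP8* alone had a row, with 7 and 0 reads in *dbp1Δ* and 2 and 4 in wild type, which is too few to compare, and the others were not analysed here. *MRP51*, the neighbour of *DBP1* and a gene for a mitochondrial ribosome protein, was at 75.3 and 105.2 RPKM in *dbp1Δ* and 109 and 111 RPKM in wild type (log2 fold change -0.30 ± 0.19 SE, limma adjusted p 0.9998), with *dbp1Δ* replicate 1 the lowest here too.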

How the data were processed

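Ribosome footprints were sequenced from 2 *dbp1Δ* and 2 wild-type libraries. The authors mapped reads to the SK1 genome (Bowtie2, per the submitters' processing notes; version and annotation not given in the sources used here) and deposited 1 RPKM value per ORF and library. ORF lengths and symbols came from the RefSeq R64 annotation of S288C, so no coordinates are given. With that length less 60 nt, 4678 of 5371 ORFs gave whole reads in all 4 libraries within 0.01 read. For the other 693 the shortest length giving whole reads was taken, which applied to *QCR9*, *QCR10*, *COX5B* and *TIM11*. Genotypes were compared with limma 3.58.1 (R 4.3.3) on log2(RPKM + 0.5) for the 5338 ORFs averaging 1 RPKM or more, using lmFit and eBayes with a trend and Benjamini-Hochberg adjustment over all ORFs. Counting intervals were exact (Clopper-Pearson, 95%). The recovered reads were also tested with limma voom. The fit and the recovery of reads were tested on simulated data. With 2 libraries a genotype, p-values measure the spread between these libraries only. In limma, eBayes also draws the variance of each ORF toward a trend over all tested ORFs, so its p-values and SEs are not set by that ORF alone.

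All 35 genes passed the filter and are named. Values in every library were given for the highest and lowest gene of each complex, the isoform pairs, the F1, core and redox subunits and *INH1*, and up to 6 genes each with the largest difference between non-overlapping genotypes or between the *dbp1Δ* replicates. The rule for the 35 genes uses complex membership alone, but these complexes, the lists and the other rules were chosen with earlier results of these data known. Alternatives were the pseudocount, the filter, a replicate block, eBayes without a trend, quantile normalization, median centring, each library left out and the full ORF length. The crossed block and the checks on the ATP synthase counts were chosen after seeing the data. The exact permutation tests, which compared mean log2 values of 18 sums and ratios, were not in the original plan. Library batch was not given in the sources used here.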

Additional observations from a re-analysis of the deposited data

How the results depend on the processing

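None of the 35 genes had an adjusted p under 0.05 (limma) in any alternative except the one without *dbp1Δ* replicate 2, and leaving out each library gave 0 to 6. Of all ORFs, 2 passed, against 1 with limma voom on recovered reads, 25 with the replicate block, and 1 to 518 with each library left out. The replicate numbers are not known to pair the libraries, and same-numbered libraries deviated from their genotype means with a correlation of -0.14 across 5338 ORFs. With the replicate block 0 of the 35 genes passed and the median log2 fold change of the 35 was -0.05. A block with the crossed pairing, chosen after seeing the data, gave 28 ORFs and 0 of the 35 genes. The median log2 fold change of the 35 genes lay between -0.13 and 0.00 when single libraries were left out, and at -0.03 with median centring and -0.01 with quantile normalization. The single genes kept their sign in every alternative that used all 4 libraries except quantile normalization, where 4 changed sign, and 10 and 5 changed sign without *dbp1Δ* replicates 1 and 2 and 7 and 6 without wild-type replicates 1 and 2. The number of ATP synthase genes below 0 was 14 with quantile normalization and 9 to 15 with each library left out. *dbp1Δ* replicate 1 was the lowest library for 15 of them with median centring and 12 with quantile normalization. The summed complex III ratio of *dbp1Δ* to wild type was 0.967 to 1.01 with each library left out. With the full ORF length, *INH1* to *ATP1* was 1.95 in *dbp1Δ*, against 2.45 with the deposited length, and 1.96 in wild type, against 2.46. The same change moved *ATP1* to *ATP3* in wild type to 1.20, against 1.16, and *COR1* to *QCR2* in wild type to 2.18, against 2.16. These shifts follow from the 60 nt left out of each length. *COX5B*, at 30 to 86 reads a library, is the gene that depth limits most.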
